A study of Mus musculus with 2 samples.

Results

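The mouse genome holds 2 main genes for the microRNA miR-101, Mir101a and Mir101b, and this account follows both in the left cerebral cortex. They were chosen by name: the entries whose Ensembl identifiers map to those symbols in GENCODE M21, 2 of the 2202 miRNA genes in the deposited tables. Their levels were already known from earlier results when they were chosen, so the levels are given as a description with no test. The tissue came from B6CASTF1/J mice, the first-generation cross of a C57BL laboratory strain with the wild-derived CAST strain. Both were females 2 months of age with no treatment or engineered allele named, and each gave 1 library of RNA below 30 nucleotides. The labels number them as female 3 and female 4 and as replicates 1 and 2, and they are called animal 1 and animal 2. They form a single group, so the data give the level of each miRNA and its difference between animals, and no contrast can be tested.

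A microRNA is cut from a hairpin in a longer transcript, and 1 of its arms then guides the silencing complex to messenger RNAs. Pairing rests mostly on the seed, bases 2 to 8 of the mature strand. The 3p arm is the main product of the miR-101 hairpins. Background work on miR-101 describes repression of Ezh2, the methyltransferase subunit of Polycomb repressive complex 2, and of App and Atxn1, which encode the amyloid precursor protein and ataxin-1. In developing brain it is known for restraining neuronal network activity.

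The mature 3p and 5p arms of both genes, and the related miR-101c and miR-144, are shown first because they decide which reads can be assigned to which gene. Sequences are RefSeq's, on GRCm38.p6, with the seed in capitals.
mmu-miR-101a-3p: uACAGUACugugauaacugaa
mmu-miR-101b-3p: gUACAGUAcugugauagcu
mmu-miR-101a-5p: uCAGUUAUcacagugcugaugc
mmu-miR-101b-5p: uCGGUUAUcaugguaccgaugcu
mmu-miR-101c: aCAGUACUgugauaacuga
mmu-miR-144-3p: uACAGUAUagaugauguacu

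The 3p arms come from nearly the same stretch of RNA. Laid over each other in their hairpins, they differed at 1 of the 21 bases of the miR-101a arm, by the substitution A16G (miR-101a base first, then miR-101b, counted from 1 at the 5′ end of miR-101a-3p). That position lies 3′ of the seed. The annotated ends differ as well. RefSeq starts miR-101b-3p 1 base further 5′ and ends it 3 bases earlier, giving 19 bases against 21. The annotated seeds are therefore ACAGUAC and UACAGUA, offset by 1 base, and miR-101b-3p holds ACAGUAC at its bases 3 to 9. The files count reads per gene, so which 5′ end was present in the cortex was not measured. The 5p arms were less alike, with 17 of 22 bases identical from the first base and the differences A3G, C11U, A12G, G15A and U17C, of which A3G falls in the seed.

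The whole hairpins are shown because counts were assigned over them, with the 3p arm in capitals.
Mir101a hairpin: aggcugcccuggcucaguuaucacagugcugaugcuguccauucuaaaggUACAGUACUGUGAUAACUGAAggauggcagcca
Mir101b hairpin: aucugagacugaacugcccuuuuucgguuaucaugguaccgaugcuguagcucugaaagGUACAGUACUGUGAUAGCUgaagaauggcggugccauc
The Mir101a hairpin is 83 nt long with 49.4% G and C, and the Mir101b hairpin 97 nt with 47.4%. In a global alignment 69 of 99 columns were identical (69.7%). The predicted folding energies were -47.0 kcal/mol for Mir101a and -39.6 kcal/mol for Mir101b.

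The longest stretch the hairpins share is 20 bases, aaagguacaguacugugaua, which runs up to the base before the substitution. A 3p read that covers the substituted base can thus be told apart, and one that ends before it cannot. Among the other miRNA hairpins, only Mir101c shared 15 or more bases with either gene. Its overlap with Mir101a is the 19-base stretch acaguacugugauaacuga, which is the whole annotated miR-101c. Mir101c had 0 counts in both animals. A read of these bases matches both genes, so the 0 sets no limit on miR-101c. Such reads may also be missing from the Mir101a count, while Mir101b shares fewer than 15 bases with Mir101c. How far this lowers the Mir101a share of the pair was not measured. Levels are given below as CPM, the count scaled to 1000000 counts at miRNA genes, and their intervals cover the counting error of reads alone. Whether copies of 1 molecule made by PCR were counted as separate reads is not stated. If they were, the intervals are too narrow. Reads mapping to several places stand in a separate entry, with 48.9 and 48.2% of the mapped reads. How many of them came from miR-101 was not measured.

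The genes sit in different kinds of host, on mm10 with GENCODE M21. Mir101a (ENSMUSG00000065451.1) occupies the minus strand of chromosome 4 from 101346945 to 101347027, within an exon of the long noncoding RNA gene E130102H24Rik on the same strand. Mir101b (ENSMUSG00000065556.1) occupies the plus strand of chromosome 19 from 29135279 to 29135375, in an intron of Rcl1, a protein-coding gene whose product acts in ribosomal RNA processing. No other miRNA gene was annotated within 10 kb of either. The protein-coding neighbours are related: Mir101a lies 81.7 kb from Jak1 and 72.2 kb from Ak4, and Mir101b lies 116 kb from Jak2 and 87.3 kb from Ak3. Jak1 and Jak2 encode cytokine receptor kinases, and Ak3 and Ak4 encode mitochondrial adenylate kinases. Host transcripts are too long for these libraries and were not measured.

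Mir101b was the more abundant gene in both animals. It had 1417 counts in animal 1, or 321 CPM (exact Clopper-Pearson 95% interval 304 to 338), and 1205 counts in animal 2, or 529 CPM (499 to 559). Mir101a had 740 counts in animal 1, or 168 CPM (156 to 180), and 151 counts in animal 2, or 66.2 CPM (56.1 to 77.7). The levels of the genes did not overlap: the lower Mir101b value stood above the higher Mir101a value. Means were 425 ± 147 CPM for Mir101b and 117 ± 71.7 CPM for Mir101a (SD, n = 2). All of these reads lay on the annotated strand, since both genes had 0 counts on the opposite strand in each animal. Levels were not divided by hairpin length, because a read stands for 1 short RNA. With that division, added after the values were seen, Mir101b kept 62.1% and 87.2% of the pair in animals 1 and 2.

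The members moved in opposite directions between the animals. Mir101a was 2.53-fold higher in animal 1 (counting interval 2.12 to 3.03) and Mir101b was 1.65-fold higher in animal 2 (1.52 to 1.78). On the log2(CPM + 1) scale, animal 1 over animal 2, the differences were 1.33 for Mir101a and -0.72 for Mir101b. Both lay outside counting error, meaning that the exact interval for the fraction of the gene's counts found in animal 1 left out the fraction expected from the library totals. So did many others: of the 415 miRNA genes at 2 CPM or more in both animals, 56.6% lay outside, 27.0% higher in animal 1 and 29.6% higher in animal 2. At other minimums it was 67.4% of 307 genes at 10 CPM or more and 34.3% of the 746 genes with 1 count or more in either library. Being outside counting error is therefore not particular to miR-101. With 1 library per animal, a difference between animals and one between library preparations cannot be told apart, and no p-value is given.

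**Figure D1:**
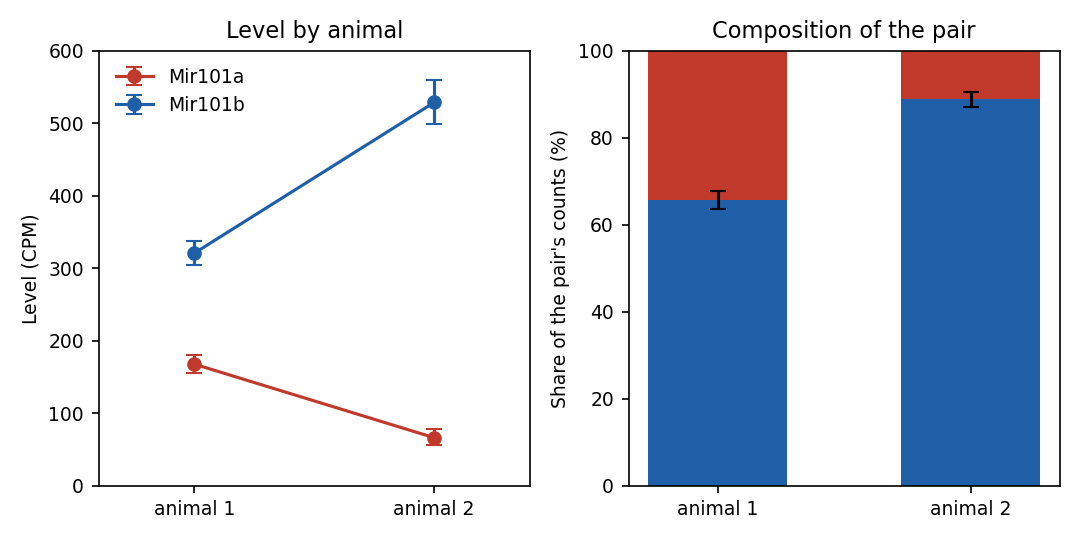
Left, level in CPM of Mir101a and Mir101b in each animal, with exact 95% counting intervals; lines join the values of 1 gene. Right, the share in percent of the pair's counts from each gene, with the exact interval of the Mir101b share: Mir101b stood at 321 and 529 CPM and Mir101a at 168 and 66.2 CPM in animals 1 and 2, and the Mir101b share at 65.7% and 88.9%.

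The composition of the pair does not depend on how the libraries are scaled. Of the pair's counts, Mir101b supplied 65.7% (63.6 to 67.7% by the exact interval) for animal 1. For animal 2 it supplied 88.9% (87.1 to 90.5%), which gives a mean of 77.3% ± 16.4 (SD, n = 2). Mir101b counts were 1.91 times those of Mir101a in animal 1 (1.75 to 2.10) and 7.98 times in animal 2 (6.73 to 9.52). The intervals are far apart, and the ratio was 4.17-fold greater in animal 2.

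As CPM, the sum of the pair moved less than either gene. Because the genes moved in opposite directions, its ratio had to lie between theirs. Together they held 488 CPM (468 to 510) in the first animal and 595 CPM (564 to 627) in the second, a 1.22-fold difference (1.14 to 1.30). That is 0.0488% and 0.0595% of all counts at miRNA genes. The pair was thus a small part of the counts assigned to miRNA genes, which leave out the separate entry of reads mapping to several places. Mir101b ranked 144 of 2202 genes in animal 1 and 123 in animal 2, and Mir101a ranked 174 and 216. Of the 2202 genes, 1456 had 0 counts in both animals.

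The size of each difference depended on what the counts were divided by. The tables held 13533476 reads for animal 1, of which 4415759 (32.6%) were counted at miRNA genes, and 10143234 reads for animal 2, of which 2279562 (22.5%) were counted. Unmapped reads were 23.4% and 47.1%. Per 1000000 of all reads in the table, Mir101b was at 105 in animal 1 and 119 in animal 2, a log2 ratio of -0.18, and Mir101a at 54.7 and 14.9, a log2 ratio of 1.81. Each gene kept its direction, while the Mir101b difference shrank and the Mir101a difference grew. The direction of the sum turned: per 1000000 of all reads the pair held 159 in animal 1 and 134 in animal 2, 1.19-fold higher in animal 1 (1.11 to 1.28). By this measure the sum, at a log2 ratio of 0.25, moved more than Mir101b at -0.18. Which animal held more miR-101 in all thus depends on the denominator, which was added for the sum after its values were seen.

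The genes next in order of mean level were as follows. Next to Mir101a came Mir377 at 122 ± 62.8 CPM and Mir412 at 117 ± 2.96 CPM above it, and Mir30b at 115 ± 19.2 CPM and Mir27a at 111 ± 31.1 CPM below. Next to Mir101b came Mir29c at 458 ± 145 CPM and Mir669c at 428 ± 109 CPM above it, and Mir877 at 417 ± 24.9 CPM and Mir666 at 408 ± 24.0 CPM below (each SD, n = 2). Being chosen as nearest, these means lay within 1 SD of the miR-101 gene they flank. Single animals could still differ beyond counting error: Mir412 had 119 CPM (109 to 130) in animal 1, below Mir101a, and 115 CPM in animal 2, above the 77.7 CPM upper bound of Mir101a.

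Between the animals, Mir101a was farther apart than most genes of its level. Among the 415 detected genes, 24 others had a larger absolute log2 ratio than Mir101a and 85 others a larger one than Mir101b. Within a factor of 2 of the mean level of Mir101a there were 58 genes, itself included, with a median absolute log2 ratio of 0.31, and 4 of them lay farther apart, 2 of these in its direction. The same band around Mir101b held 57 genes with a median of 0.39, of which 8 lay farther apart, 5 of them in its direction.

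**Figure D2:**
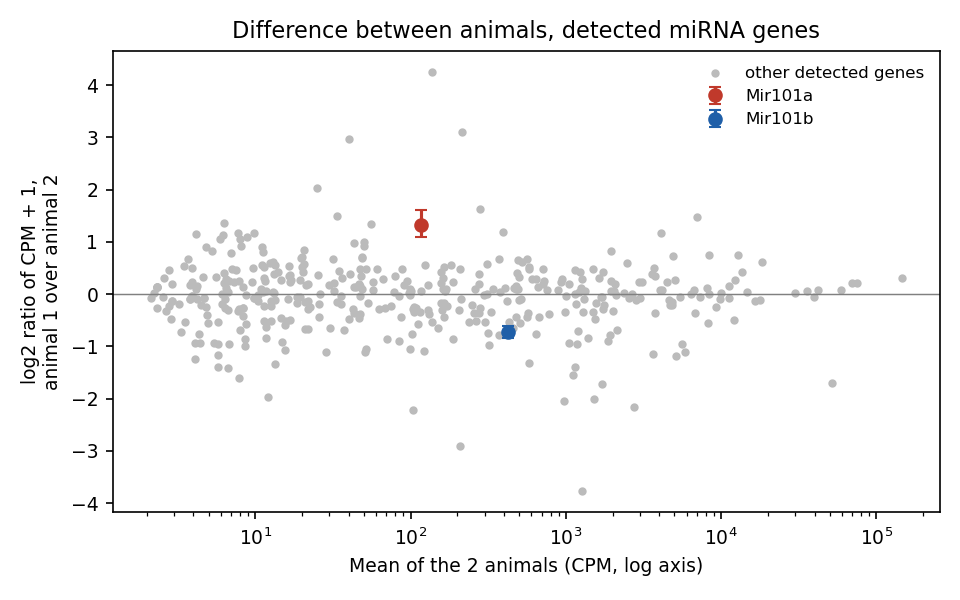
Log2 ratio of CPM + 1, animal 1 over animal 2, against mean CPM on a log axis, 1 point for each of the 415 detected miRNA genes, with counting intervals for the miR-101 genes. Mir101a at 1.33 lies near the upper edge of the points at its level and Mir101b at -0.72 lies below 0.

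The genes with the most similar values in the animals differed for the members. Likeness was measured as the distance between log2(CPM + 1) values over the 2 animals, a description over 2 points. Nearest to Mir101b were Mir669c at a distance of 0.14, Mir29c at 0.17 and Mir15a at 0.29, all higher in animal 2. Mir15a, for example, had 273 and 469 CPM. Nearest to Mir101a were Mir483 at 0.62, Mir376b at 0.71 and Mir7-2 at 0.79, so no detected gene matched Mir101a as closely as these matched Mir101b. Mir483, which lies within the imprinted gene Igf2, had 149 and 100 CPM.

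Other miRNA genes whose names share a number and differ in the letter give a scale for the change in composition. This comparison was chosen after the miR-101 values were seen. Names with a copy number after the letter, such as Mir26a-1, were left out at first. With at least 30 counts per gene in each library there were then 28 pairs, and the median absolute shift of their log2 ratio between animals was 0.35. The shift of Mir101b over Mir101a was 2.06, first of the 28, beside 2.04 for Mir34c over Mir34a and -1.45 for Mir99b over Mir99a. No other of these 28 shifted by more than 1. In 3 of the 28 pairs (10.7%) the genes lay outside counting error in opposite directions. These were Mir101a with Mir101b, Mir30b with Mir30e and Mir30a with Mir30b, and the Mir30 shifts were -0.53 and 0.42.

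The first place rested on the naming rule and the count minimum. With numbered copies included there were 58 pairs, and the miR-101 pair came second, behind Mir26b over Mir26a-1 at -2.98. In that set 8 pairs shifted by more than 1, among them Mir26b over Mir26a-2 at -1.39, the median absolute shift was 0.36, and 9 pairs (15.5%) went in opposite directions outside counting error. Those included both Mir26a copies with Mir26b. The Mir26a copies share 25 bases with another hairpin, so reads within that stretch may be missing from their counts. Without the copies, at a minimum of 10 counts the pair was the fourth of 39, behind Mir200b with Mir200c at 3.37, Mir344b with Mir344g at 3.14 and Mir200a with Mir200b at -2.07. At a minimum of 100 counts it was again first, of 21. Pairs share members, so they are not independent of each other.

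**Figure D3:**
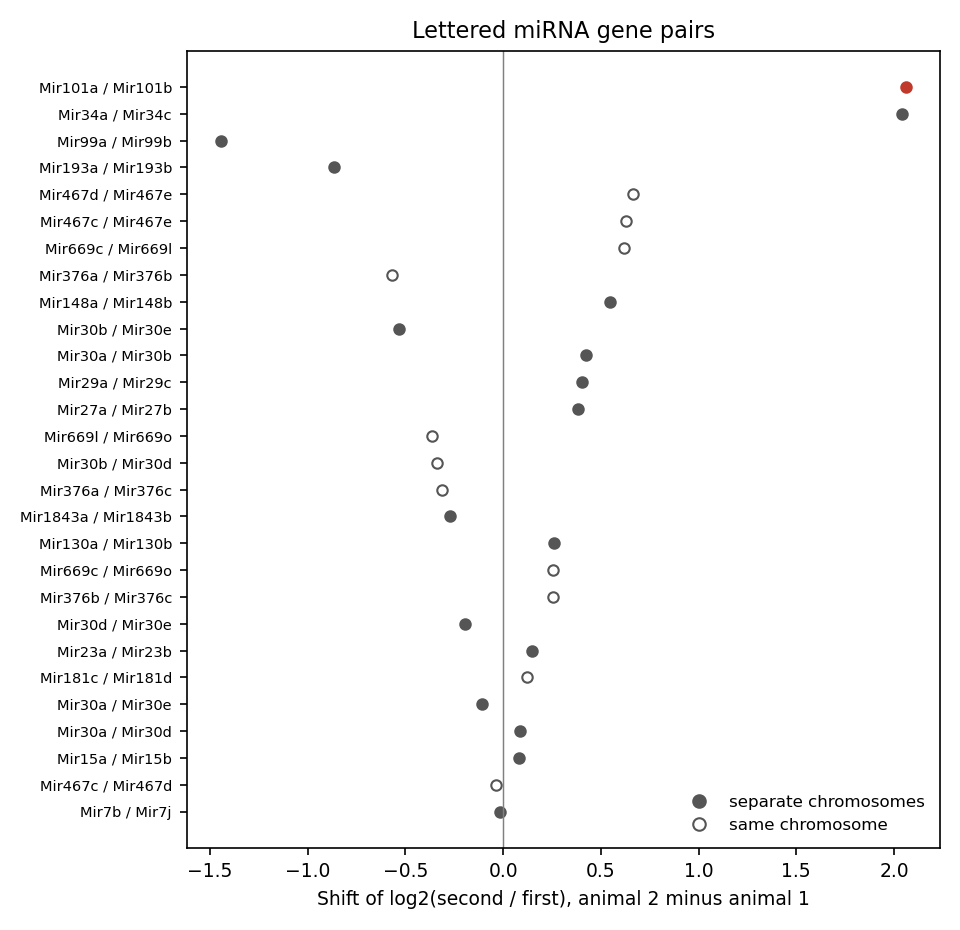
Shift between animals of the log2 ratio of the second to the first gene, animal 2 minus animal 1, for 28 pairs of miRNA genes that share a number, names with a copy number left out, sorted by size. Filled points are pairs on separate chromosomes and open points pairs on 1 chromosome. The miR-101 pair, in red, stands at 2.06 and the median absolute shift was 0.35.

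The 3 families compared, which also have members on separate chromosomes, differed among themselves. Over all 415 detected genes, 27.0% were higher in animal 1 and 29.6% higher in animal 2, outside counting error. In the miR-148 and miR-152 family all 3 genes were higher in animal 1. Mir148a had 49.8 and 17.1 CPM, Mir148b 57.7 and 29.0 CPM and Mir152 25.1 and 14.9 CPM. In the miR-103 and miR-107 family the 2 detected genes were higher in animal 2, led by Mir107 at 798 and 2613 CPM. The third, Mir103-1, had only 1 and 10 counts and fell below the detection minimum. The miR-26 family was split as miR-101 was, and farther apart: Mir26b had 6107 and 3698 CPM, Mir26a-1 had 36.0 and 172 CPM and Mir26a-2 had 23.6 and 37.3 CPM. The Mir26a and Mir103 copies share 25 and 27 bases with another hairpin and Mir107 shares 24, against 20 for the miR-101 genes. Reads lying within a shared stretch match more than 1 gene and may be missing from these counts. The counts of those genes therefore need not follow their mature miRNAs, and are not directly comparable with miR-101. The difference between families was not tested.

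No other mature miRNA in the RefSeq table used carried either full miR-101 seed, and 2 carried bases 2 to 7. The 3p arm of miR-144, a red cell miRNA, shares them with miR-101a and differs at base 8. Mir144 had 180 counts in animal 1 (40.8 CPM) and 21 in animal 2 (9.21 CPM). The 5p arm of miR-582 shares bases 2 to 7 with the annotated miR-101b. Mir582 had 40 counts (9.06 CPM) and 33 counts (14.5 CPM), inside counting error. Both were below Mir101a and Mir101b in each animal.

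Mir101a moved in the direction of 2 erythroid miRNAs. That direction was not particular to them. Outside counting error, 27.0% of all detected genes went the way of Mir101a and 29.6% the way of Mir101b. Of the 8 detected neuronal genes, 5 went with Mir101a and 2 with Mir101b, although the neuronal list summed to 55604 and 102181 CPM, the direction of Mir101b. The erythroid list (Mir451a, Mir144 and Mir486) summed to 459 CPM in animal 1 but 91.2 CPM in animal 2. Its members had values of their own, with Mir451a at 385 and 43.9 CPM and Mir486 at 33.5 and 38.2 CPM, the latter inside counting error. Mir101b moved in the direction of the oligodendrocyte list, which summed to 1642 and 3461 CPM, and of the endothelial Mir126a at 6662 and 9727 CPM. In the oligodendrocyte list Mir219a-1 had 7.47 and 6.14 CPM, inside counting error. Reads that match both Mir219a copies may be missing from their counts. The microglia and leukocyte list summed to 1760 and 2313 CPM, with 3 of its 4 genes higher in animal 2, also the direction of Mir101b. That direction was thus not particular to oligodendrocyte and endothelial markers. None of the markers on these lists was at 0 in both animals. In whole tissue, fewer cells of a type and less RNA per cell cannot be told apart, and the part of these cell types in the miR-101 values was not tested.

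Neuronal miRNAs were present, as were markers of the other listed cell types. Of the 12 genes on the neuronal list, 8 were detected in both animals and none was at 0 in both. Their sums in the respective animals were 55604 and 102181 CPM, with Mir132 alone at 24389 and 79576 CPM. Of those detected, 5 were higher in animal 1 and 2 in animal 2, where all detected genes gave 27.0% and 29.6%. The 3 Mir124a copies had at most 11 counts each. A read that matches more than 1 copy maps to several places and may be missing from these counts, so they set no limit on miR-124. The median log2 ratio of the 8 was 0.37, against 0.00 for all 415 detected genes.

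**Figure D4:**
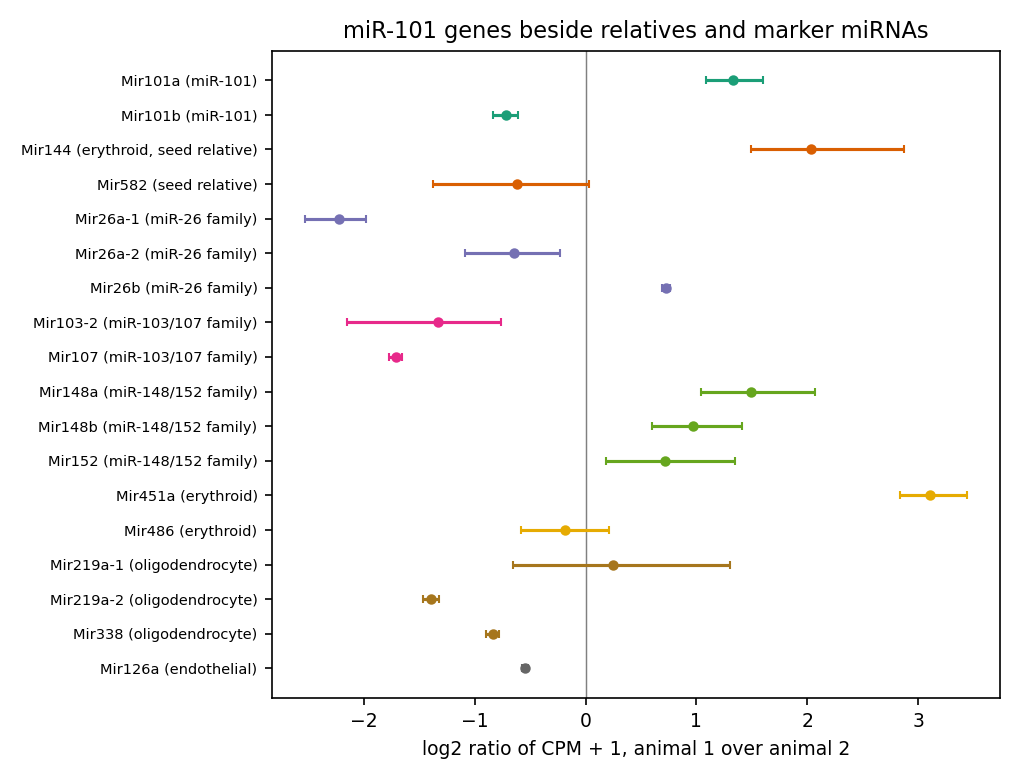
Log2 ratio of CPM + 1, animal 1 over animal 2, with exact 95% counting intervals, for genes that reached 2 CPM in both animals. Shown are the miR-101 genes, their seed relatives, 3 comparison families and the erythroid, oligodendrocyte and endothelial markers. The neuronal markers and those of microglia and leukocytes are not drawn. Mir101a lies on the side of Mir144 and Mir451a, and Mir101b on the side of Mir219a-2 and Mir338. Mir486 at -0.18 and Mir219a-1 at 0.25 lie inside counting error, so they show no direction.

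Genes of other miRNAs reported to act on the same target genes went in both directions between the animals. The lists count genes, so copies of 1 miRNA, such as Mir138-1 and Mir138-2, are counted separately. Reads that match more than 1 copy may be missing from their counts. The shares over all detected genes were 27.0% higher in animal 1 and 29.6% higher in animal 2. Of 12 genes listed for Ezh2, 8 were detected, 2 of them higher in animal 1, 5 higher in animal 2 and 1 inside counting error. Their median log2 ratio was -0.43. The Mir138 copies fell on opposite sides, Mir138-1 at -0.21 and Mir138-2 at 0.23. By gene, Mir30d, at 8361 and 8377 CPM, and Mir26b had the highest means, although Mir138-1 at 5025 CPM stood above Mir26b in animal 2. Mir138-2, the other miR-138 copy, is counted apart, at 3350 and 2860 CPM, so this is no ranking of mature miRNAs. Mir98, a let-7 relative, had 1643 and 2645 CPM, and Mir214 had 49.4 and 90.8 CPM. Of 8 genes listed for App, 7 were detected, 2 higher in animal 1, 1 higher in animal 2 and 4 inside, with a median of 0.10. Mir153, a neuronal miRNA, had 427 and 136 CPM, and its log2 ratio of 1.64 was in the direction of Mir101a. Mir16-1 had 314 and 240 CPM, and Mir106b 271 and 252 CPM.

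Of 5 genes listed for Atxn1, 2 were detected and 2, Mir19a and Mir19b-2, had 0 counts in both animals. A read that matches both Mir19b copies maps to several places and may be missing, so their counts set no limit on miR-19b. Whether reads of Mir19a were lost in this way was not measured. Mir130a had 1010 and 855 CPM and Mir130b had 99.0 and 100 CPM, with a median log2 ratio of 0.11 for the detected. In each animal the miR-101 pair, at 488 and 595 CPM, stood below Mir130a and above Mir130b. Messenger RNAs were not measured, so nothing is known here of the targets themselves.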

How the data were processed

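The authors deposited a table of raw, unscaled read counts at miRNA genes for each library. Build mm10 and GENCODE M21 are stated per the file headers of the metadata deposited with each library. For the aligner, trimming, filters and handling of reads mapping to several places, no details are stated in the sources used here. The columns have no header. The read-strand count column was used, as the rule for choosing the genes names it. The 4 summary entries were left out of library totals: reads at no gene were 6.52% and 4.91% of reads, those mapping to several places 37.4% and 25.5%. All 2202 identifiers matched the annotation. The labels give separate animals, replicates 1 and 2, but a shared donor identifier.

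CPM, exact Clopper-Pearson 95% intervals and log2(CPM + 1) were computed in Python 3.11.15 with scipy 1.17.1. The interval procedure was tested on simulated counts drawn from a Poisson model, which holds counting error alone. That test checks the calculation and cannot show how the intervals behave in real libraries. RNAfold 2.7.2 gave folding energies and Biopython 1.88 the alignment. Detection meant 2 CPM in both animals. With a single group no differential test was run. Alternatives were TMM (edgeR 4.0.16), DESeq2 1.42.0 size factors, the unstranded column, other denominators, pseudocounts of 0.1 and 5, other filters, hairpin length and leaving out either library.

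The genes and lists were chosen with earlier results of these data known. Named genes were the members and Mir101c, genes sharing bases 2 to 7 of a 3p arm, 2 rank neighbours on each side, the 3 nearest in pattern, the listed genes, hosts and annotated neighbours. Lettered pairs were added later.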

Additional observations from a re-analysis of the deposited data

How the results depend on the processing

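TMM factors, DESeq2 size factors, the unstranded column, leaving the most abundant gene out of the total and pseudocounts of 0.1 and 5 left both levels within 1 SD and both log2 ratios within their counting intervals. Over the 7 alternatives the log2 ratio ran from 1.28 to 1.81 for Mir101a and from -0.72 to -0.18 for Mir101b. With all reads in the table as denominator the mean level was 34.8 per 1000000 reads for Mir101a and 112 for Mir101b, and the log2 ratios were 1.81 and -0.18. The log2 ratio of the pair's sum turned from -0.28 to 0.25 with it. That denominator includes unmapped reads, 23.4% and 47.1%. Leaving out either library gave 66.2 to 168 CPM for Mir101a, 321 to 529 CPM for Mir101b and 65.7 to 88.9% for the Mir101b share. Genes outside counting error numbered 235. They numbered 239 with TMM factors, 123 higher in animal 1 and 116 in animal 2, against 112 and 123 as reported. No paired analysis was possible because there is a single group. Mir101a in animal 2 rests on 151 counts, the lowest depth behind a miR-101 value.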
